A study of Mus musculus with 6 samples.

Results

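RAB proteins are small GTPases that act as switches of membrane traffic. Each one, loaded with GTP by an exchange factor and anchored in a membrane by its lipid tail, recruits effectors that move, tether and fuse vesicles at a particular compartment, until a GTPase-activating protein turns it off. Early and recycling endosomes, the endoplasmic reticulum and Golgi with the secretory vesicles, and the late endosomes and lysosomes each carry their own RABs. The RAB genes were taken as all gene symbols made of RAB, a number and at most 1 letter, which gave 63 of the 17144 genes listed. They were grouped by their textbook compartment into 17 endosomal, 25 secretory, 12 lysosomal and 9 other genes, the last for cilia, for ubiquitin ligase adaptors and for RABs without a clear place, to which RAB6D was added once the files had been read.

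RNA-seq libraries, 3 of group D and 3 of group C, were all made from cells labelled SaOS2, a human osteosarcoma line. The series concerns the effect of a compound called DDTC(I), but no label says what the letters D and C stand for, so neither is called treated or control, and every difference is D minus C. No label tells whether replicates came from separate cultures, and the p-values therefore measure only the spread between these libraries, which may be technical. Libraries held 18446443 to 19802340 counts in D and 18532763 to 20602771 in C, and a floor of 3 counts stood for 0.139 to 0.170 normalized CPM (CPM, counts relative to the library's total, scaled by TMM factors for library composition). Floors cover counting error only, while each ± value, an SD or a standard error, also holds the spread between libraries. Of 10 osteoblast markers, 7 were tested, of which 1 was higher in D and 5 were lower, with a summed normalized CPM of 718 to 807 in D and 2002 to 2359 in C. ALPL, the alkaline phosphatase for which the line is known, had 9 to 15 counts per library in D and 8 to 13 in C, and SP7, IBSP and BGLAP had at most 2 counts in any library, which goes against the label. The part of these markers in the RAB results was not tested. The organism is labelled as mouse although the gene symbols follow human naming, so genes are identified by symbol only.

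Of the 63 RAB genes, 49 passed the filter on low counts and were tested with the edgeR quasi-likelihood test over all 12682 genes kept. The threshold for a call was 0.05 on the Benjamini-Hochberg adjusted p. Of the 49, 14 were higher in D, 14 were lower and 21 were not called. Scaling by library size only, which moved the median log2 fold change of all tested genes to -0.17, gave 11 higher and 17 lower. The shares under the TMM scaling, 28.6% in each direction, lie near those of all tested genes, of which 26.8% were called higher and 27.7% lower, 54.4% in all. In these bulk libraries fewer cells of a kind and less message per cell cannot be told apart. The median log2 fold change of the tested RABs was -0.02, as it was for all tested genes. At least 2-fold changes were found for 3 RABs in the higher direction (RAB39B, RAB9B and RAB3D) and 5 in the lower (RAB3A, RAB6B, RAB40B, RAB5B and RAB3B), where 8.37% of all tested genes were at least 2-fold higher and 10.1% at least 2-fold lower. In 16 tested RABs all D libraries lay above all C libraries and in 15 all lay below, beside 30.6% and 32.1% of all tested genes. The summed normalized CPM of the family overlapped between groups, at 3528, 3553 and 3789 in D replicates 1 to 3 and 3632, 3612 and 3504 in C replicates 1 to 3. Without the TMM scaling it did not overlap: RABs took 0.339%, 0.345% and 0.346% of all counts in D and 0.382%, 0.379% and 0.371% in C, lower in every D library.

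**Figure D1:**
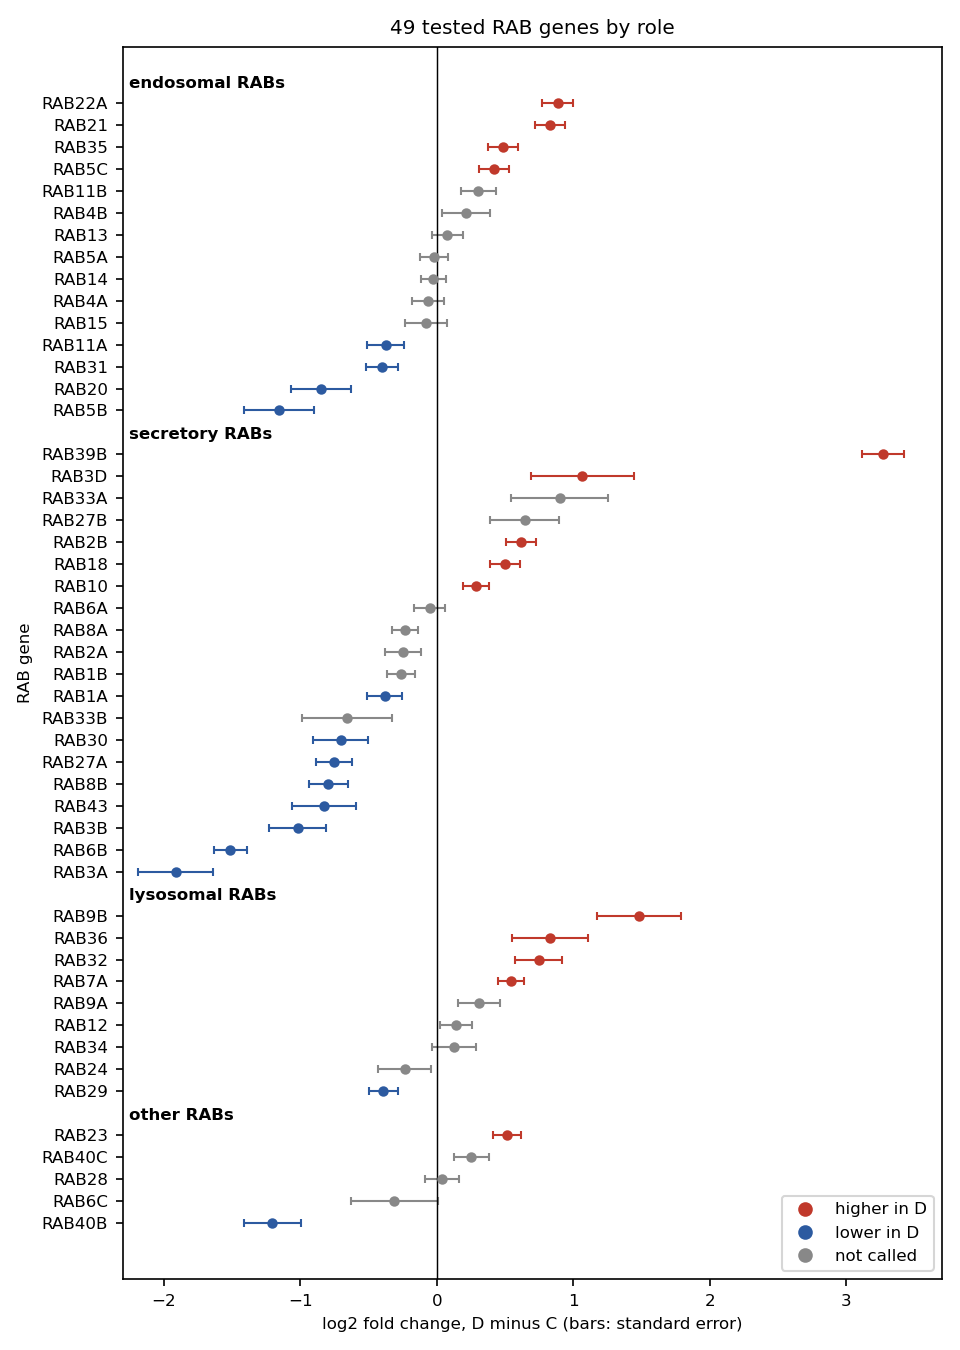
Log2 fold change, D minus C, of the 49 tested RAB genes (points, 1 per gene; bars, standard error) within 4 role groups; red genes were called higher in D, blue genes lower and grey genes were not called. RAB39B stands at 3.27, while the other RABs lie between -1.91 (RAB3A) and 1.48 (RAB9B).

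Levels between genes are compared on the deposited FPKM, which divides by gene length. RAB7A, the RAB of late endosomes and lysosomes, had the highest FPKM of the family in D, 252 ± 5.70 against 193 ± 2.82 in C (SD, n = 3 each). RAB1B, which serves traffic from the endoplasmic reticulum to the Golgi, had the highest in C, with 167 ± 10.97 FPKM in D and 223 ± 4.36 in C. RAB5C, an early endosome RAB, followed with 143 ± 11.8 FPKM in D and 119 ± 0.695 in C. The order of the first 2 genes was therefore RAB7A above RAB1B in D and RAB1B above RAB7A in C, with no overlap of the spreads in either group. RAB23 headed the other RABs with 10.9 FPKM in D and 8.51 in C.

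Among the endosomal RABs, 15 of 17 were tested, of which 4 were higher in D (26.7%), 4 were lower (26.7%) and 7 were not called, with a median log2 fold change of -0.02. The rises were in RAB22A, RAB21, RAB35 and RAB5C. RAB22A, which sorts cargo from early endosomes into recycling, had 49.9, 60.0 and 59.6 normalized CPM in D replicates 1 to 3 and 30.9, 29.6 and 31.1 in C replicates 1 to 3. All D libraries lay well above all C libraries, and the log2 fold change was 0.89 ± 0.11 (SE; adjusted p = 0.00030, edgeR). RAB21, which carries integrins through early endosomes, had 55.4, 68.3 and 63.7 normalized CPM in D and 34.2, 35.7 and 35.7 in C. The groups were again apart, with a log2 fold change of 0.83 ± 0.11 (adjusted p = 0.00042, edgeR). RAB35, a RAB of fast recycling to the plasma membrane, had 98.8, 95.2 and 81.8 normalized CPM in D and 63.7, 64.8 and 68.3 in C (0.49 ± 0.11; adjusted p = 0.0052, edgeR). RAB5C had 296, 266 and 333 normalized CPM in D and 225, 223 and 222 in C (0.42 ± 0.11; adjusted p = 0.011, edgeR). Neither gene's groups overlapped, and the call of RAB5C was lost under the replicate block, a fit with the replicate number as a term (0.41, adjusted p = 0.054, edgeR).

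The endosomal falls were in RAB5B, RAB20, RAB31 and RAB11A. RAB5B, a close paralog of RAB5C, went the other way, with 21.67, 23.89 and 11.01 normalized CPM in D and 45.3, 36.8 and 44.0 in C. D replicate 3 was lowest, no D library reached a C library, and the log2 fold change was -1.15 ± 0.25 (adjusted p = 0.0050, edgeR). The third paralog, RAB5A, had 83.7, 90.0 and 83.4 normalized CPM in D and 89.8, 90.8 and 79.8 in C, overlapping groups with a log2 fold change of -0.02 ± 0.10. RAB20, known from macrophage phagosomes, was scarce, at 0.903, 1.15 and 1.42 normalized CPM in D and 2.05, 2.22 and 1.99 in C, without overlap (-0.85 ± 0.22; adjusted p = 0.011, edgeR). RAB31, which links the trans-Golgi network to endosomes, had 253, 278 and 220 normalized CPM in D and 353, 323 and 314 in C (-0.40 ± 0.12; adjusted p = 0.018, edgeR). RAB11A, the RAB of the recycling endosome, had 103, 101 and 133 normalized CPM in D and 153, 154 and 131 in C (-0.37 ± 0.14; adjusted p = 0.043, edgeR). It was the one called RAB whose groups overlapped, D replicate 3 standing above C replicate 3. The RAB31 call was lost with the replicate block (-0.40), and on leaving out C replicate 1 (-0.35) or 2 (-0.42) or D replicate 1 (-0.41). The RAB11A call was lost in DESeq2 (-0.34), with RLE factors (-0.34), with length trends removed (-0.29), with the replicate block (-0.38), and on leaving out C replicate 1 (-0.34) or 2 (-0.34) or D replicate 1 (-0.32) or 2 (-0.27).

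The other tested endosomal RABs, RAB4A, RAB4B, RAB5A, RAB11B, RAB13, RAB14 and RAB15, had log2 fold changes between -0.08 and 0.31 and were not called. RAB11B, the second recycling endosome paralog, came closest, with 79.6, 66.0 and 88.9 normalized CPM in D and 65.8, 60.0 and 63.9 in C. Its groups did not overlap, but its log2 fold change of 0.31 ± 0.13 missed the threshold (adjusted p = 0.070, edgeR). Without D replicate 2 it passed (0.45, adjusted p = 0.0057, edgeR), and RAB4B passed there too (0.41). RAB17 and RAB25, which are RABs of polarized epithelia, were left out of the test for low counts. RAB25 had 0 counts in every D library, which allows up to 0.169, 0.156 and 0.170 normalized CPM in D replicates 1 to 3, and 2, 2 and 4 counts in C. RAB17 had 2, 2 and 6 counts in D and 14, 7 and 7 in C. Among 7 epithelial markers, 5 were tested, of which 3 were higher in D, among them ESRP1 and CDH1, and 1 was lower. Their summed normalized CPM was 125 to 161 in D and 83.9 to 93.4 in C, EPCAM had at most 7 counts in any library, and the part of these markers in the RAB results was not tested.

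Among the secretory RABs, 20 of 25 were tested, of which 5 were higher in D (25.0%), 8 were lower (40.0%) and 7 were not called, with a median log2 fold change of -0.26. The members moved far apart from each other. RAB39B, a RAB best known from neurons, where it is a gene of X-linked intellectual disability, had 17.5, 18.6 and 19.8 normalized CPM in D and 2.31, 1.66 and 1.85 in C. That is 311, 358 and 349 counts in D and 45, 36 and 39 in C. The lowest D library was several times above the highest C library, and the log2 fold change of 3.27 ± 0.16 was the largest of any tested RAB (adjusted p = 4.9e-06, edgeR). Its call held in all 16 alternatives.

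RAB3A and RAB3B, RABs of synaptic and other regulated secretory vesicles, were both lower in D. RAB3A had 0.959, 0.989 and 0.568 normalized CPM in D and 3.79, 3.33 and 2.46 in C, without overlap (-1.91 ± 0.27; adjusted p = 0.00053, edgeR). RAB3B, the most abundant of its subfamily, had 87.8, 113 and 59.2 normalized CPM in D and 182, 160 and 185 in C, also without overlap (-1.02 ± 0.21; adjusted p = 0.0034, edgeR). RAB3D went the other way at a very low level, with 11, 26 and 15 counts in D and 10, 7 and 11 in C. Its log2 fold change of 1.07 ± 0.38 was called (adjusted p = 0.040, edgeR) but the call was lost in DESeq2 (1.09), with library size only (0.92), with log2(FPKM + 1) without filter (0.12), with the replicate block (1.04), and on leaving out C replicate 1 (1.15), 2 (0.87) or 3 (1.18) or D replicate 2 (0.74). RAB6B, the Golgi RAB found mostly in neurons, had 6.26, 6.61 and 6.25 normalized CPM in D and 18.9, 16.4 and 19.2 in C. The groups were far apart, with a log2 fold change of -1.51 ± 0.12 (adjusted p = 3.7e-05, edgeR), while its widely expressed paralog RAB6A overlapped between groups (-0.05 ± 0.11). Of 7 neuronal and neuroendocrine markers 4 were tested, with adjusted p-values of 0.25 to 0.83 (edgeR). Their summed normalized CPM was 109 to 146 in D and 115 to 120 in C, and STMN2 had at most 1 count in any library. CHGA, an untested marker of the same list, had 10, 7 and 9 counts in D and 1, 0 and 1 in C, without overlap, and the part of these markers in the RAB results was not tested.

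**Figure D2:**
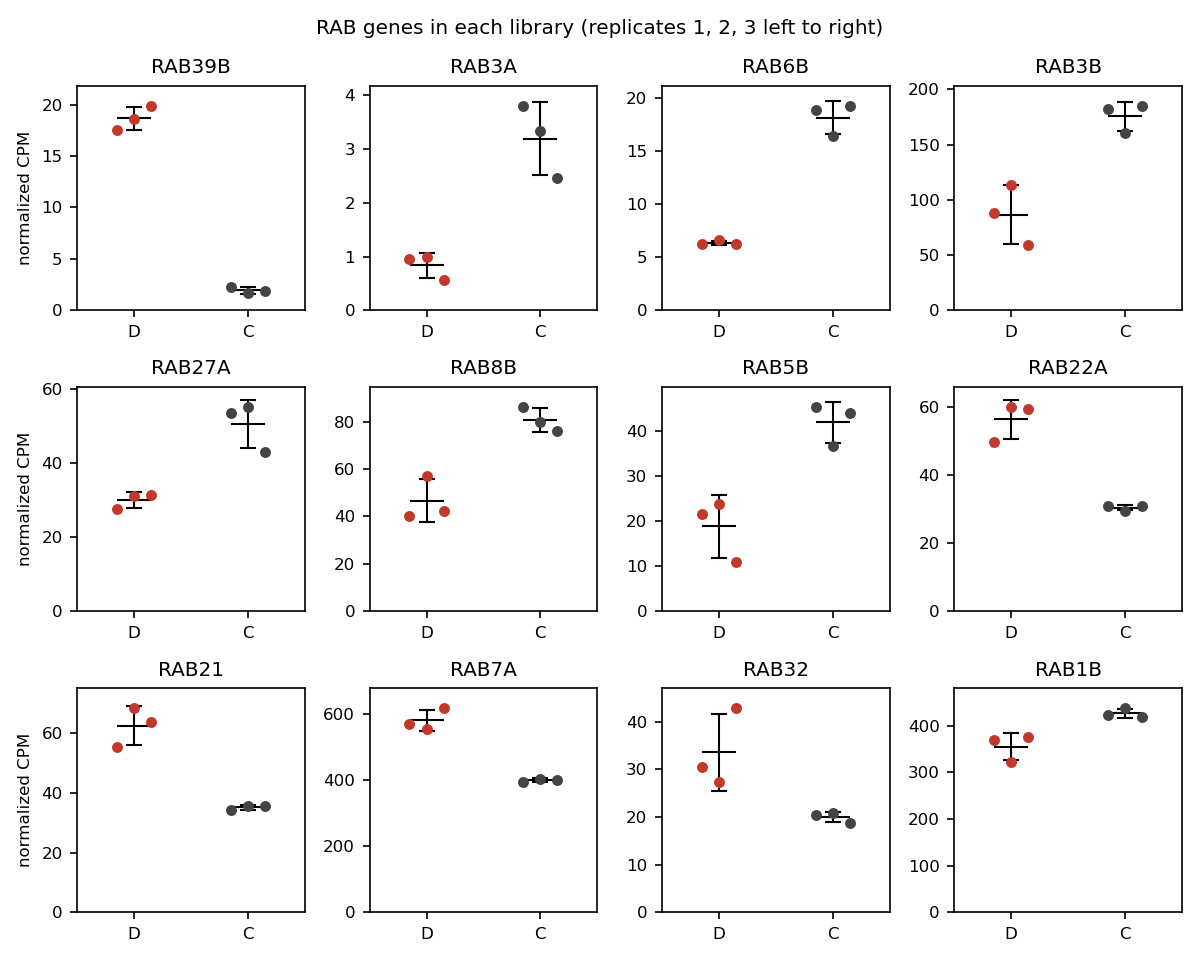
Normalized CPM of 12 RAB genes in the 3 D libraries (red) and the 3 C libraries (grey), each panel from 0; points are libraries, horizontal marks group means and bars the SD. RAB39B reads 17.5 to 19.8 in D and 1.66 to 2.31 in C, and no panel has overlapping groups.

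RAB27A, which docks melanosomes and secretory granules at the plasma membrane, was lower in D, with 27.5, 31.0 and 31.4 normalized CPM in D and 53.5, 55.0 and 42.9 in C (-0.75 ± 0.13; adjusted p = 0.0015, edgeR). Its groups did not overlap. Its paralog RAB27B had 20.6, 40.1 and 20.6 normalized CPM in D and 17.3, 16.3 and 18.4 in C, with D replicate 2 far above the other D libraries. Its log2 fold change of 0.64 ± 0.25 was not called (adjusted p = 0.057, edgeR), but it was in DESeq2 (0.67), with RLE factors (0.67), without a filter (0.63), with length trends removed (0.85) and on leaving out D replicate 1 (0.81) or 3 (0.82). RAB8B, which takes part in traffic from the Golgi to the plasma membrane, had 40.4, 56.9 and 42.3 normalized CPM in D and 85.9, 79.9 and 76.2 in C, without overlap (-0.79 ± 0.15; adjusted p = 0.0020, edgeR). RAB8A, its paralog, had 82.8, 79.5 and 81.3 normalized CPM in D and 89.6, 99.2 and 97.5 in C. These groups did not overlap either, but the log2 fold change of -0.23 ± 0.10 was not called (adjusted p = 0.066, edgeR). It was called lower with library size only (-0.39), with length trends removed (-0.28) and in the FPKM fits (-0.37 to -0.38).

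Among RABs of the endoplasmic reticulum and Golgi, RAB2B and RAB18 were higher and RAB1A, RAB30 and RAB43 lower. RAB2B, of Golgi to endoplasmic reticulum traffic, had 23.9, 25.2 and 24.1 normalized CPM in D and 16.9, 14.8 and 16.1 in C (0.62 ± 0.11; adjusted p = 0.0017, edgeR). RAB18, of the endoplasmic reticulum and lipid droplets, had 71.1, 81.6 and 87.3 normalized CPM in D and 55.4, 59.3 and 55.0 in C (0.50 ± 0.11; adjusted p = 0.0051, edgeR). Both genes had every D library above every C library. RAB1A had 78.8, 83.4 and 105 normalized CPM in D and 120, 121 and 107 in C, with D replicate 3 just under C replicate 3 (-0.38 ± 0.13; adjusted p = 0.034, edgeR). RAB1B, the more abundant paralog, had 369, 321 and 375 normalized CPM in D and 424, 437 and 417 in C. Its groups did not overlap, yet the log2 fold change of -0.26 ± 0.10 missed the threshold (adjusted p = 0.057, edgeR), and it passed with library size only (-0.42), in the FPKM fits (-0.42), with length trends removed (-0.36) and without D replicate 3 (-0.29). RAB2A, the abundant paralog of RAB2B, was not called (-0.25 ± 0.13) but passed as lower with library size only (-0.40), in the FPKM fits (-0.40 to -0.41) and without D replicate 3 (-0.36). The Golgi RABs RAB30 (-0.70 ± 0.20) and RAB43 (-0.82 ± 0.24) were called lower. RAB10, of exocytic traffic and glucose transporter delivery, was called higher at 206, 228 and 215 normalized CPM in D and 171, 183 and 179 in C, the smallest change called among the RABs (0.29 ± 0.09; adjusted p = 0.030, edgeR).

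Several of these calls were lost under other settings, some with a fold change as large. The RAB1A call was lost with the replicate block (-0.39), and on leaving out C replicate 1 (-0.36), 2 (-0.35) or 3 (-0.44) or D replicate 1 (-0.30) or 2 (-0.30). The RAB10 call was lost with library size only (0.14), in all the FPKM fits (0.13) and without a filter on the counts (0.27). It was also lost with the replicate block (0.29). The same held on leaving out C replicate 1 (0.26), 2 (0.31) or 3 (0.29) or D replicate 1 (0.32). RAB30 lost its call on leaving out C replicate 1 (-0.65) or 3 (-0.67) or D replicate 1 (-0.59), and RAB43 on leaving out C replicate 1 (-0.68) or D replicate 1 (-0.83). RAB33A and RAB33B, Golgi RABs that also take part in autophagy, were not called at 0.90 ± 0.35 and -0.66 ± 0.33. In D, RAB33A had 1.81, 1.15 and 2.95 normalized CPM and RAB33B had 3.84, 6.09 and 1.99, so RAB33A was lowest and RAB33B highest in D replicate 2. Without that library RAB33A passed at 1.22 and RAB33B at -1.08. RAB33A also passed in DESeq2 (0.94) and with length trends removed (0.68), and RAB33B with log2(FPKM + 1) (-0.44) and with the replicate block (-0.75). RAB3C, RAB19, RAB26 and RAB41 had at most 1 count in any library, and RAB37, of mast cell exocytosis, had 5, 1 and 1 counts in D and 15, 12 and 6 in C. These 5 were not tested.

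Among the lysosomal RABs, 9 of 12 were tested, of which 4 were higher in D (44.4%), 1 was lower (11.1%) and 4 were not called, with a median log2 fold change of 0.31. The median was -0.02 and -0.01 in the FPKM fits with a filter, which tested 7 of them. RAB7A, which recruits the tethers and motors of late endosomes and lysosomes, had 571, 557 and 617 normalized CPM in D and 393, 404 and 402 in C. The groups were well apart, and the log2 fold change was 0.54 ± 0.10 (adjusted p = 0.0017, edgeR). RAB32, a RAB of melanosomes and other lysosome-related organelles, had 30.5, 27.4 and 42.8 normalized CPM in D and 20.4, 20.8 and 18.7 in C (0.75 ± 0.17; adjusted p = 0.0061, edgeR). D replicate 3 was the highest and no D library reached down to C. RAB9B, a paralog of the RAB9A that returns mannose 6-phosphate receptors from late endosomes to the Golgi, was rare, with 22, 35 and 39 counts in D and 10, 12 and 17 in C. In normalized CPM these were 1.24, 1.82 and 2.21 in D and 0.512, 0.555 and 0.806 in C, without overlap (1.48 ± 0.31; adjusted p = 0.0036, edgeR). RAB36, which binds the lysosomal adaptor RILP, had 2.82, 3.07 and 2.04 normalized CPM in D and 0.922, 1.71 and 1.80 in C (0.83 ± 0.28; adjusted p = 0.033, edgeR). RAB29, which brings the kinase LRRK2 to membranes, was the lysosomal RAB that fell, with 31.8, 29.7 and 29.7 normalized CPM in D and 37.8, 43.0 and 38.8 in C, again without overlap (-0.39 ± 0.11; adjusted p = 0.015, edgeR).

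The RAB36 call was lost with library size only (0.68), with log2(FPKM + 1) without filter (0.17), with the replicate block (0.85), and on leaving out C replicate 1 (0.59) or 2 (0.94) or D replicate 1 (0.79) or 2 (0.74). The RAB29 call was lost with the replicate block (-0.39) and without C replicate 2 (-0.34). RAB9A, RAB12, RAB24 and RAB34 were not called, with log2 fold changes between -0.24 and 0.31. Of these, RAB9A passed without D replicate 2 (0.47), and RAB24, a RAB of autophagosomes, passed as lower on leaving out D replicate 3 (-0.47) and after removal of length trends (-0.39). RAB7B, RAB38 and RAB39A had at most 11 counts in any library and were not tested. Of 7 melanocyte markers 6 were listed and 3 tested, of which MITF and DCT were lower in D and PMEL was not called. Their summed normalized CPM was 21.9 to 31.5 in D and 40.4 to 42.7 in C, MLANA and SOX10 had at most 1 count in any library, and their part in the values of RAB27A and RAB32 was not tested.

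Of the 5 other RABs tested, 1 was higher, 1 was lower and 3 were not called. RAB23, a brake on Hedgehog signalling tied to the primary cilium, had 53.5, 61.8 and 56.9 normalized CPM in D and 40.7, 39.3 and 40.5 in C (0.52 ± 0.10; adjusted p = 0.0030, edgeR). RAB40B, an adaptor of cullin ubiquitin ligases, had 1.47, 1.72 and 1.31 normalized CPM in D and 4.05, 2.91 and 3.46 in C (-1.20 ± 0.21; adjusted p = 0.0015, edgeR). Neither gene's groups overlapped. RAB40C and RAB28 (0.25 ± 0.12 and 0.04 ± 0.12) were not called, though RAB40C passed without D replicate 2 (0.36). RAB6C, which like RAB6D is close in sequence to RAB6A, was not called either (-0.31 ± 0.32). Reads shared between such copies may have been divided in a way that the counts do not show. RAB6D, RAB40A, RAB42 and RAB44 had at most 10 counts in any library and were not tested.

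**Figure D3:**
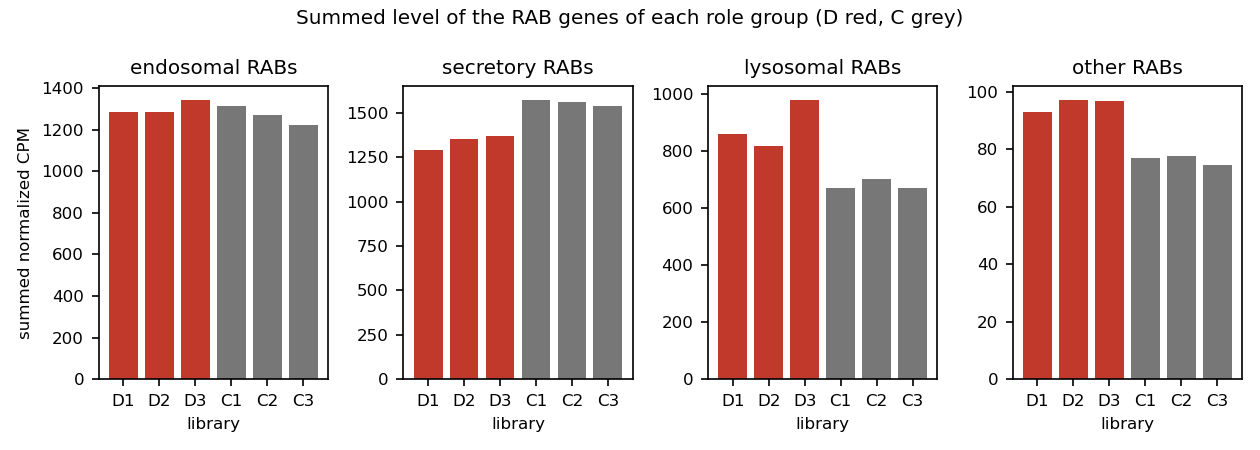
Summed normalized CPM of all listed RAB genes of each role group in each of the D libraries (red) and C libraries (grey), 1 bar per library, axes from 0. Secretory RABs sum to 1290 to 1371 in D and 1537 to 1572 in C, and lysosomal RABs to 818 to 978 in D and 669 to 703 in C.

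Summed over role groups, the message was distributed differently between the groups of libraries. The secretory RABs summed to 1338 ± 42.4 normalized CPM in D and 1556 ± 18.1 in C (SD, n = 3 each), a ratio of 0.859 that was 0.869 without RAB1B, their most abundant gene. The lysosomal RABs summed to 886 ± 83.2 normalized CPM in D and 681 ± 19.1 in C, a ratio of 1.30. Without RAB7A this ratio was 1.08 and the libraries of D and C overlapped, so the separation of the lysosomal sum rested on RAB7A. By library size only, the ratio without RAB7A was 0.97, again with overlap. The other RABs summed to 95.7 ± 2.3 normalized CPM in D and 76.35 ± 1.66 in C, a ratio of 1.25. Without RAB23 this ratio was 1.06, with overlap. Among single genes, D lay wholly above C for 30.6% of all tested genes and wholly below for 32.1%. The endosomal RABs summed to 1304 ± 33.5 normalized CPM in D and 1269 ± 44.1 in C, with overlap. By library size only, the ratios were 0.773 for the secretory, 1.17 for the lysosomal and 0.924 for the endosomal RABs, the last without overlap, so the direction of the endosomal sum changed with the scaling.

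Within several subfamilies of close paralogs the composition differed between groups. Shares were taken of the summed FPKM of a subfamily within each library, so they do not depend on scaling between libraries, and they carry no test. Where paralogs differ in length, shares can still move with the length trends of the libraries described below. In the fit with length trends removed, the log2 fold changes of RAB8A and RAB8B lay closer together (-0.28 and -0.58). Those of RAB11A and RAB11B also lay closer together (-0.29 and 0.16), with neither called in that fit. Those of RAB27A and RAB27B lay further apart (-0.71 and 0.85), as did those of RAB22A and RAB31 (1.13 and -0.35). In the RAB5 subfamily, RAB5C made up 79.3%, 76.1% and 82.4% in D replicates 1 to 3 and 70.3%, 71.0% and 72.0% in C replicates 1 to 3. RAB5B made up 3.13%, 3.69% and 1.47% in D and 7.65%, 6.32% and 7.71% in C. Neither share overlapped between groups. Of the RAB11 subfamily, RAB11B made up 67.8% ± 1.93 in D and 56.7% ± 2.74 in C, with RAB11A as nearly all of the rest. Of the pair RAB22A and RAB31, RAB22A made up 9.83% ± 1.49 in D and 4.25% ± 0.259 in C.

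The same held for secretory subfamilies. RAB27B made up 22.4%, 33.3% and 20.1% of the RAB27 pair in D and 11.1%, 10.3% and 14.2% in C, with D replicate 2 highest. RAB2B made up 21.1% ± 2.74 of the RAB2 pair in D and 12.7% ± 1.22 in C. RAB6B made up 3.08% ± 0.361 of the RAB6 subfamily in D and 7.98% ± 0.25 in C. RAB8B made up 14.7% ± 2.65 of the RAB8 pair in D and 20.3% ± 1.82 in C, and RAB3A made up 6.94% ± 0.787 of the RAB3 subfamily in D and 12.5% ± 2.63 in C. In all of these the D and C libraries did not overlap. Such separation was common in these data. In normalized CPM, a measure unlike shares, D lay wholly above C for 30.6% of all tested genes and wholly below for 32.1%. Groups overlapped in the RAB1, RAB4, RAB7 and RAB34 subfamilies. RAB4B made up 77.5%, 73.3% and 78.6% of the RAB4 pair in D and 73.4%, 74.0% and 72.4% in C, and RAB1B made up 82.9% ± 1.90 of the RAB1 pair in D and 81.7% ± 0.761 in C.

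**Figure D4:**
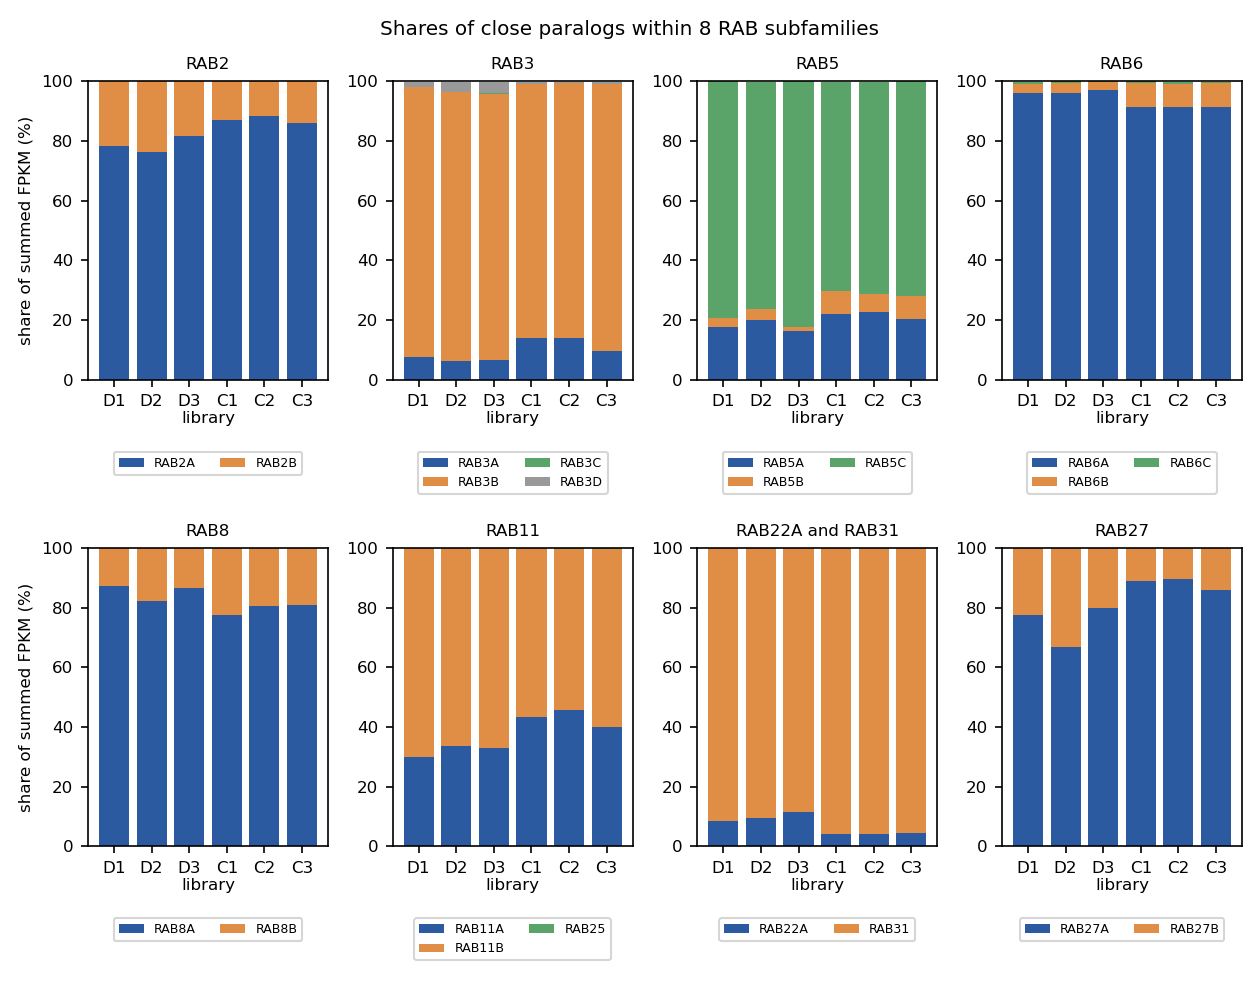
Share of each paralog in the summed FPKM of its subfamily, as stacked bars to 100% for each D and C library, in 8 subfamilies. RAB5C reaches 76.1% to 82.4% in D and 70.3% to 72.0% in C, and RAB27B 20.1% to 33.3% in D and 10.3% to 14.2% in C.

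The D libraries differed from each other along gene length, and the RABs moved with this. Log2 CPM, as the deviation from the group mean over all tested genes, had a slope on log2 length of 0.013, 0.170 and -0.183 in D replicates 1, 2 and 3, and of -0.0012, -0.049 and 0.050 in C replicates 1, 2 and 3. Of the 11 tested RABs of up to 2000 bp, 1 had a higher normalized CPM in D replicate 2 than in D replicate 3, with a median log2 ratio of -0.43. Of the 7 tested RABs over 6000 bp, 7 did, with a median log2 ratio of 0.59. Across the 49 tested RABs, Spearman's rho between length and this ratio was 0.68, a description over genes that share the same 2 libraries. The long genes RAB3B, RAB27B, RAB30 and RAB8B were all highest in D replicate 2 among the D libraries, and the short genes RAB32 and RAB33A were highest in D replicate 3. The fit with length trends removed took each library's deviation from the mean of all libraries, not of its group. It therefore also removed any trend with length between D and C, which the slopes above do not measure. In this fit 16 RABs were called higher and 16 lower. The log2 fold changes were -0.77 for RAB3B, -0.58 for RAB8B, 0.52 for RAB32, 3.28 for RAB39B and 0.46 for RAB7A, all called by edgeR. The long genes RAB21 (1.15) and RAB22A (1.13) then passed 2-fold and RAB3B no longer did, so that 5 called RABs were at least 2-fold higher and 4 at least 2-fold lower.

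**Figure D5:**
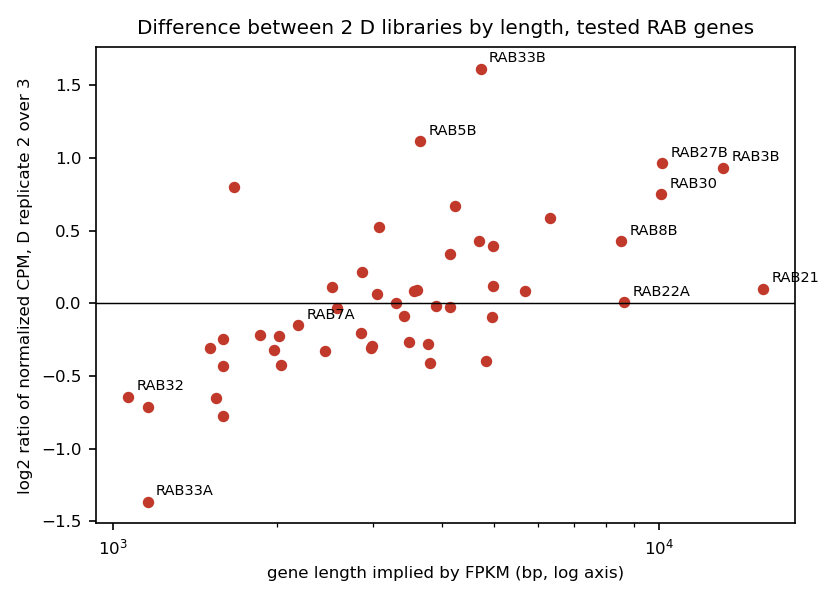
Log2 ratio of normalized CPM in D replicate 2 over D replicate 3 against the gene length implied by FPKM (bp, log axis), 1 point per tested RAB gene, 49 in all. RABs over 6000 bp lie above 0, with a median of 0.59, and those of up to 2000 bp mostly below, with a median of -0.43.

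The genes that load, unload and read RABs were taken as lists by role. Of 6 tested genes for prenylation and recycling of RABs, 3 were higher in D and the other 3 were not called, with a median log2 fold change of 0.45. RABGGTB, the catalytic subunit of the enzyme that attaches the lipid tail, had 97.3, 102 and 140 normalized CPM in D and 62.8, 70.4 and 64.2 in C (0.78 ± 0.15). RABIF, a chaperone of nucleotide-free RABs, had 12.6, 12.7 and 14.5 normalized CPM in D and 5.64, 7.12 and 8.39 in C (0.91 ± 0.16). Neither overlapped between groups, and both were called (adjusted p = 0.0025 and 0.0018, edgeR).

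Of 48 tested exchange factor genes, 9 were higher (18.8%) and 15 lower (31.2%) in D, with a median log2 fold change of -0.16. With length trends removed the median was -0.04, with 13 higher and 15 lower. HPS1, a subunit of the exchange factor of RAB32 and RAB38, had 46.5, 43.0 and 49.7 normalized CPM in D and 20.4, 22.0 and 19.0 in C (1.18 ± 0.12; adjusted p = 8.5e-05, edgeR). CCZ1, which with MON1 proteins activates RAB7, had 24.9, 31.9 and 28.0 normalized CPM in D and 15.1, 15.5 and 13.0 in C (0.96 ± 0.14), but it has a near-identical copy, CCZ1B, with which it may share reads. Among the falls were DENND3, an exchange factor of RAB12 (-1.07 ± 0.13), and ANKRD27, one of RAB21 that also binds RAB32 (-0.97 ± 0.15). Of 37 tested GTPase-activating proteins, 6 were higher (16.2%) and 12 lower (32.4%), with a median of -0.20. With length trends removed this median was -0.03, with 9 higher and 12 lower. TBC1D22A (1.16 ± 0.11) and TBC1D2B (0.86 ± 0.13) were higher. TBC1D10A, which acts on RAB27A and RAB35, had 10.7, 8.64 and 10.1 normalized CPM in D and 25.0, 24.9 and 21.0 in C (-1.27 ± 0.13; adjusted p = 0.00012, edgeR), and TBC1D8B was lower as well (-2.52 ± 0.26).

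Of 21 tested endosomal effectors and tethers, 7 were higher (33.3%) and 4 lower (19.0%), with a median log2 fold change of 0.24. By library size only there were 5 higher and 5 lower with a median of 0.09. The FPKM fits also gave 5 higher and 5 lower (medians 0.06 to 0.09). With length trends removed there were 13 higher and 5 lower, with a median of 0.41. RABEP2, an effector of RAB4 and RAB5, had 24.2, 20.1 and 24.1 normalized CPM in D and 9.17, 9.20 and 9.38 in C (1.30 ± 0.12; adjusted p = 7.0e-05, edgeR), and MICALL1, a recycling endosome scaffold, was higher too (0.84 ± 0.10). The RAB11 effectors RAB11FIP1 (-1.34 ± 0.20) and RAB11FIP4 (-1.79 ± 0.26) were lower. Of 39 tested secretory effectors and tethers, 8 were higher (20.5%) and 12 lower (30.8%), with a median of -0.12. With length trends removed this median was 0.10, with 12 higher and 13 lower. UNC13D, the RAB27 effector that primes lytic granules, had 15.1, 12.9 and 15.8 normalized CPM in D and 1.84, 2.50 and 1.71 in C, far apart (2.85 ± 0.18; adjusted p = 1.4e-05, edgeR), and the Golgi tether gene GCC1 was also higher (1.05 ± 0.12). GORASP2, a Golgi stacking protein (-0.91 ± 0.09), and KIF20A, a kinesin that binds RAB6 and acts in cell division (-3.21 ± 0.11), were lower. Of 27 tested lysosomal effectors and tethers, 8 were higher (29.6%) and 5 lower (18.5%), with a median of 0.06. By library size only there were 5 higher and 7 lower with a median of -0.09, and the median was also below 0 in the FPKM fits (-0.16 to -0.10). VPS11, a core subunit of the tethers of endosomes and lysosomes (1.09 ± 0.12), and VPS26A of the retromer (1.11 ± 0.12) were higher. PLIN3, a lipid droplet protein reported to bind RAB9 (-0.86 ± 0.12), and WDR91, which binds RAB7 (-0.80 ± 0.12), were lower. Each regulator or effector named in these paragraphs was called by edgeR under the main setting and in every alternative that tested it.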

How the data were processed

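Libraries were built with a SMARTER mRNA kit from kit-purified total RNA, per the labels' protocols. The authors deposited whole-number counts per gene symbol without normalization, and FPKM values scaled by library total and gene length. The ratio of counts to FPKM gave 1 length per gene, the same across all libraries with an FPKM above 0 to a relative tolerance of 0.001, for each of the 17144 genes. The submitters' processing notes name mouse builds. Not given in the sources used here are the aligner, the counter and the strand setting.

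The test was edgeR 4.0.16 in R 4.3.3 on the counts (filterByExpr, TMM factors, quasi-likelihood F test, 2-sided, group as the only term). The filter kept 12682 genes and 99.952% of the counts. The standard error is the log2 fold change divided by the square root of F. Alternatives, 16 in all, used DESeq2 1.42.0, RLE factors, library size only, no filter, 1 CPM in 3 libraries, a replicate block, 1 library left out at a time, length trends removed (lowess, span 0.4), and limma 3.58.1 on log2 FPKM (pseudocount 1 or 0.1, FPKM above 1 in at least 3 libraries, and pseudocount 1 with no filter). The scripts were tested on simulated data. Members, role groups and lists were chosen with earlier results of these data known. Genes given in full were, in each role group, called RABs of at least 2-fold change, up to 4 called RABs per direction by p, and the RAB with the highest FPKM, and in each list up to 2 called genes per direction. Other RABs were described after their values were seen.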

Additional observations from a re-analysis of the deposited data

How the results depend on the processing

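Of the 28 called RABs, 18 were called in the same direction in every alternative that tested them. The same count was not made for all called genes, so whether this share is usual in these libraries is not known. The number of RABs called higher, 14, was 11 to 17 when 1 library was left out, and the number lower, 14, was 9 to 18, the 9 without C replicate 1. With 1 library left out, endosomal RABs called lower (4) numbered 2 to 4, secretory RABs higher (5) 3 to 6 and lower (8) 5 to 11, lysosomal RABs lower (1) 0 to 2, other RABs higher (1) 1 to 2, endosomal effectors higher (7) 5 to 13, secretory effectors lower (12) 9 to 19, and lysosomal effectors higher (8) 4 to 11. The replicate block gave 10 RABs higher and 11 lower, with 2 endosomal lower, 3 secretory higher, 0 lysosomal lower and 5 lysosomal effectors higher. Same-numbered D and C libraries deviated from their group means with correlations of 0.008, -0.397 and -0.365. These deviations also followed gene length, so the correlations cannot show whether same-numbered libraries were paired. Library size only gave 11 RABs higher and 17 lower (median log2 fold change of all genes -0.17), with 3 secretory RABs and 5 lysosomal effectors higher. Limma on log2(FPKM + 1), log2(FPKM + 0.1) or log2(FPKM + 1) without filter gave 3 secretory RABs and 5 lysosomal effectors higher. With the filter, both pseudocounts gave 2 lysosomal RABs higher and 0 other RABs lower, since RAB36, RAB9B and RAB40B fell below it. With length trends removed there were 2 lysosomal RABs lower, 13 endosomal effectors higher and 13 lysosomal effectors higher. The cause of these shifts was otherwise not tested. As shares of counts in place of FPKM, the differences in percentage points, D minus C, were -0.84 for RAB3A, -0.05 for RAB3B (3.10 by FPKM), 0.84 for RAB3D, -7.18 for RAB5B, -7.48 for RAB6B, -9.56 for RAB8B and -20.5 for RAB27A. Depth limits the 14 untested RABs, which had at most 15 counts in any library.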
